A study of Homo sapiens with 16 samples.

Results

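The 10 genes followed here belong to the cyclin D pathway and are the D-type cyclins CCND1 and CCND3, their kinases CDK4 and CDK6, the retinoblastoma gene RB1, and the inhibitors CDKN2A, CDKN2B, CDKN2C, CDKN2D and CDKN1B. Their probes were taken by name alone, as every non-control probe whose gene name in the scanner files was one of these symbols. The symbols themselves were chosen with earlier results of these data known. This gave 10 genes with 12 probes on 39 spots, of 32080 named genes and 50599 probes on 58717 spots. The samples were 2 human multiple myeloma cell lines, RPMI-8226 and MM.1S, cultured for 6 days with DMSO (the solvent), with GSK126 at 1 µM, with UNC0638 at 1 µM, or with both at 1 µM each. GSK126 inhibits EZH2, the methyltransferase that places the repressive H3K27 methyl mark as part of the PRC2 complex. UNC0638 inhibits G9a (encoded by EHMT2) and the related GLP, methyltransferases for H3K9. Each of the 8 groups had 2 biological replicates, each on its own one-colour array. There was 1 dose and 1 time point, and each line stands for itself, not for myeloma in general.

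In G1, D-type cyclins bind CDK4 or CDK6, and the active kinases phosphorylate the RB1 protein. Phosphorylated RB1 lets go of E2F transcription factors, which then turn on genes for DNA replication. The INK4 proteins, encoded by CDKN2A (p16), CDKN2B (p15), CDKN2C (p18) and CDKN2D (p19), bind CDK4 and CDK6 and keep them from cyclin D, while CDKN1B (p27) binds cyclin-kinase complexes, including those of cyclin E and CDK2. Another transcript of CDKN2A, from a start further upstream, encodes ARF, which acts through MDM2 on p53. CDKN2A and CDKN2B lie side by side on chromosome 9 and are textbook targets of PRC2. Myeloma cells commonly express a D-type cyclin above the level of normal plasma cells.

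The 250 bases before the transcription start are shown for the kinases and CDKN2D, which changed with the combination in MM.1S, and for CDKN2A and CDKN2B as PRC2 targets (RefSeq, GRCh38.p14, 5′ to 3′ on the strand of the gene). Of the 10 members, 9 were in the RefSeq promoter table, with 15 starts between them, and CCND1 was not. RB1 and CCND3 are not shown. The only RB1 entry lies 172699 bases past the annotated start of the gene and those of CCND3 lie 1347, 108227 and 110830 bases past it. Capitals mark the letters CACGTG (the E-box of MYC and related factors) and GGGCGG or its complement CCGCCC (the GC box of SP1). CDK4 is at chr12:57752311-57752560, CDK6 at chr7:92836574-92836823 and, for its other start, chr7:92833960-92834209. CDKN2A is at chr9:21995325-21995574 (the ARF start) and at chr9:21974858-21975107 (the p16 start, 20467 bases further along the gene). CDKN2B is at chr9:22009306-22009555 and CDKN2D at chr19:10568980-10569229, and all of these genes are on the minus strand.
CDK4: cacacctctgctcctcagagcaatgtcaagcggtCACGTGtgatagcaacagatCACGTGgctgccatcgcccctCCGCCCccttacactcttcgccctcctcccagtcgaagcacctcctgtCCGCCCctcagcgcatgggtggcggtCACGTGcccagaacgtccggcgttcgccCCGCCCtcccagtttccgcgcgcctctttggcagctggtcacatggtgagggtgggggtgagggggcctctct
CDK6 first start: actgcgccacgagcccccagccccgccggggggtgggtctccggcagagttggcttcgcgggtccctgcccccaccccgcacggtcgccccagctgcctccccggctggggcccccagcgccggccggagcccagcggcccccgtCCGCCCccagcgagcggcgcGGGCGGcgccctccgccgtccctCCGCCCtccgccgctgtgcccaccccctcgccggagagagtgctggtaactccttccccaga
CDK6 second start: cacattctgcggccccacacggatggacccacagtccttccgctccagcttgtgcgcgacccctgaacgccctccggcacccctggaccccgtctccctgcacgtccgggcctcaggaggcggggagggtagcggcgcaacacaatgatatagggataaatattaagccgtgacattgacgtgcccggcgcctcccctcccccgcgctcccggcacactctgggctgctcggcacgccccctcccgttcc
CDKN2A ARF start: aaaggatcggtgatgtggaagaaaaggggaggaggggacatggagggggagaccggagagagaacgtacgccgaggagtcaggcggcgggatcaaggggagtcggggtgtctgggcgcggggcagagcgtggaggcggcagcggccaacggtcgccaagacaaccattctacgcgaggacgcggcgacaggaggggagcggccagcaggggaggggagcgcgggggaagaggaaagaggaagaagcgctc
CDKN2A p16 start: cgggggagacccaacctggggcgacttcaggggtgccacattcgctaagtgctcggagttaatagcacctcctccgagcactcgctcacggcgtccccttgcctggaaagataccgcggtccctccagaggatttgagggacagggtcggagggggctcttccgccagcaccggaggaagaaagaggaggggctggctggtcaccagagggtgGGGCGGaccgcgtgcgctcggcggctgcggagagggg
CDKN2B: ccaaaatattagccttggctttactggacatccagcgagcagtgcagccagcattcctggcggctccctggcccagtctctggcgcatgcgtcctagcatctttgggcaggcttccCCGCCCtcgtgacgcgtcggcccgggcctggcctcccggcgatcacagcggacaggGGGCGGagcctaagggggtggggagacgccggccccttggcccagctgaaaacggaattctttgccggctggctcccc
CDKN2D: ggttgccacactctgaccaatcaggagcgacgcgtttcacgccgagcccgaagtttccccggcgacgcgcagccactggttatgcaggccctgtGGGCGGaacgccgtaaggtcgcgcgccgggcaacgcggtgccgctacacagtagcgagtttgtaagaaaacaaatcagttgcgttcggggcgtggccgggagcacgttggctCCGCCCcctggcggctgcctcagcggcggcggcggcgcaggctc
CACGTG was found 3 times before CDK4 and 1 time before each of 2 starts of CDKN2C, so at 3 of the 15 starts. It was present in 6.34% of the 35116 promoter windows of the same length. GGGCGG was found at 10 of the 15 starts, against 42.6% of all windows, and 1 pair of matches overlapped, upstream of CDKN2C. The E2F letters TTTCCCGC, TTTCGCGC, TTTGCCGC and TTTGGCGC, searched on both strands, were at 0 of the 15 starts and in 2.79% of all windows. CG dinucleotides, which are dense in CpG islands, numbered 24 before the ARF start and 20 before the p16 start of CDKN2A, 18 before CDKN2B and 30 before the first CDK6 start, where the median over all windows was 11. A match is a description of the letters only, and the window before the annotated gene start of RB1 or CCND3 was not among those searched.

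Array levels below are on the log2 scale and set against the 75th percentile of the same array, which is 0. Levels of different probes were not set against each other. All RPMI-8226 arrays lay on 1 slide and all MM.1S arrays on another, so a level difference between the lines cannot be told apart from the slide, and the lines are compared only through their responses to treatment. Between 46.5% and 49.7% of spots on the RPMI-8226 arrays and between 49.9% and 52.8% on the MM.1S arrays were well above background, and 0 were saturated. Replicates correlated at r = 0.985 to 0.991 across probes in RPMI-8226 and at 0.993 to 0.995 in MM.1S, and the standard errors below are larger in RPMI-8226 for most members. All 10 plasma cell markers examined (such as SDC1, CD38 and IRF4) were well above background on every array of both lines.

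In MM.1S the combination lowered both D-type cyclins of the set and both kinases and raised RB1 and CDKN2D. Of these calls, that of CCND1 was lost under 2 of 19 alternatives to the processing. In RPMI-8226 no member was called against DMSO. A gene was called when limma gave its leading probe a Benjamini-Hochberg adjusted p under 0.05 over all probes kept in that line. Of the 10 members, 8 could be tested in each line, because CDKN2B and CDKN2C did not pass the filter on dim probes. In MM.1S, 2 of the 8 rose and 0 fell with GSK126, where 5.74% of the 16986 genes tested were called higher and 2.37% lower, and 1 more was higher and 2 lower at an unadjusted p under 0.05. With UNC0638, 0 rose and 3 fell (background 13.8% higher and 16.7% lower), and 3 more were higher and 1 lower at an unadjusted p under 0.05. The combination gave 2 higher and 4 lower, against 23.2% higher and 32% lower among all genes, so calls were common in this comparison. In RPMI-8226 the limma count was 0 for GSK126 (background 0.656% higher and 0.0562% lower), 0 for UNC0638 (0.649% and 0.0749%) and 0 for the combination (8.06% and 5.03% of 16018 genes). At an unadjusted p under 0.05 these counts were 0, 1 and 3. The 3 treated groups of a line share its DMSO arrays, so their values against DMSO are not independent of each other. In bulk RNA, a lower level in every cell and a smaller share of cells with the transcript cannot be told apart.

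**Figure D1:**
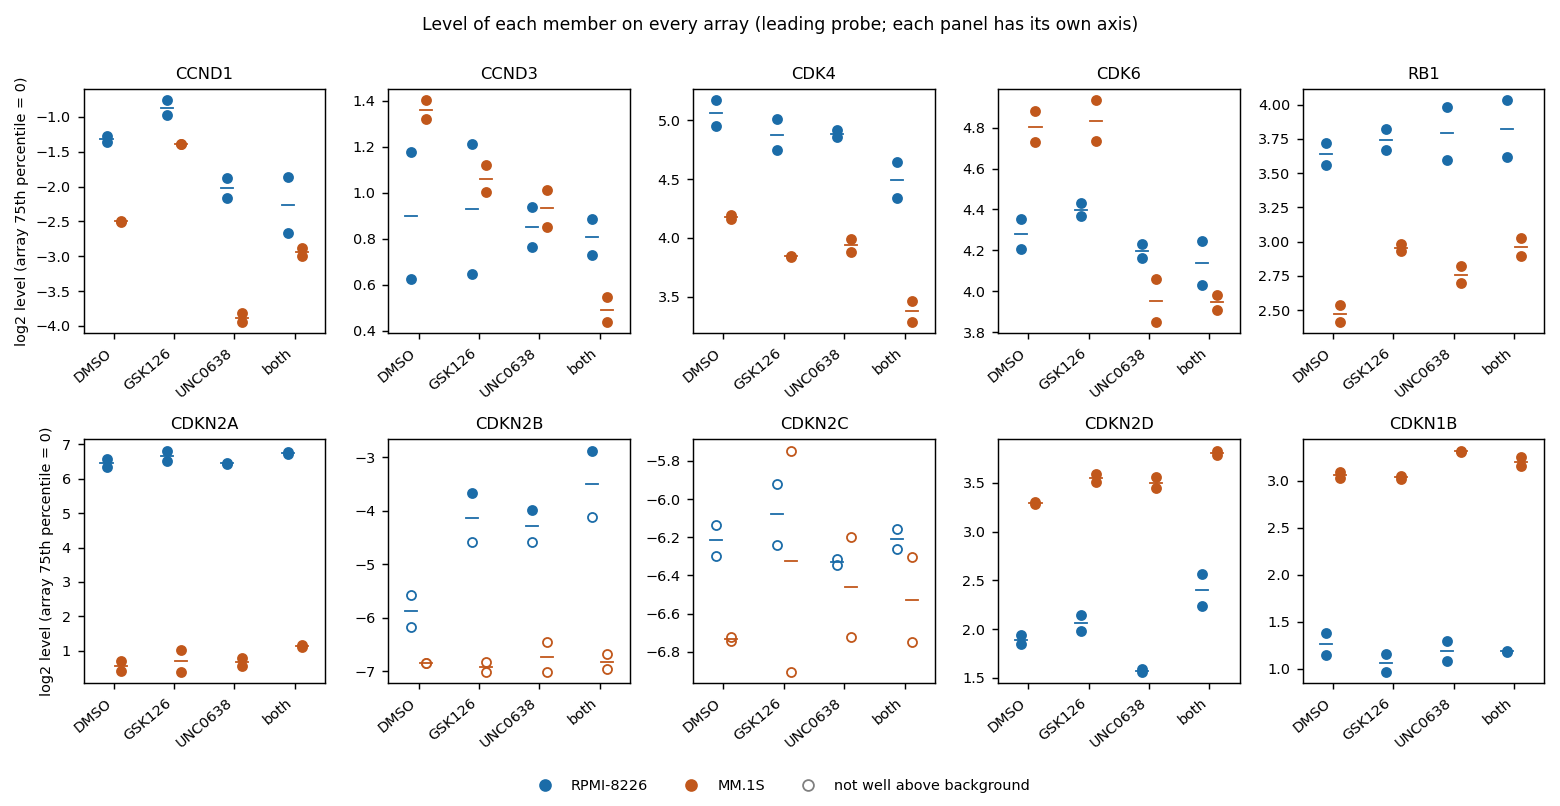
Log2 level of each of the 10 members (leading probe) on every array, by treatment, with RPMI-8226 in blue and MM.1S in orange, short lines at group means, and open circles where the spot was not well above background. Each panel has its own axis. CCND1 in MM.1S moved from about −2.50 with DMSO to −1.39 with GSK126 and to −3.82 and −3.95 with UNC0638, and CDKN2C is open on all 16 arrays.

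CCND1 encodes cyclin D1, and its probe (10 spots per array, chr11:69468233-69468292 in GRCh37) moved in opposite directions with the single inhibitors in MM.1S. Its levels in MM.1S were −2.49 and −2.51 with DMSO, −1.39 and −1.39 with GSK126, −3.82 and −3.95 with UNC0638, and −2.88 and −3.00 with both. The 4 groups did not overlap, with GSK126 highest, then DMSO, the combination and UNC0638. GSK126 raised CCND1 2.16-fold (log2 change 1.11, SE 0.09, adjusted p = 0.00421) and UNC0638 lowered it 2.60-fold (log2 change −1.38, SE 0.09, adjusted p = 0.000753). The probe was dim, though well above background on every array. Its mean intensities in MM.1S were 78.1 and 75.7 with DMSO, 167 and 175 with GSK126, 32.3 and 31.1 with UNC0638, and 61.3 and 54.6 with both. In RPMI-8226 they were 50.5 to 171. After normexp background correction (offset 50) both were called at smaller values of 0.71 and −0.64, so the size of these folds depended on the background correction. With both inhibitors it stood 1.36-fold below DMSO (log2 change −0.44, adjusted p = 0.00675), a call that did not hold when the 75th percentile was taken over probes detected on all 16 arrays (log2 change −0.23, adjusted p = 0.0769) or in one fit over all 16 arrays (adjusted p = 0.124), and that held at −0.23 after normexp. The combination was lower than GSK126 alone by a log2 difference of −1.55 (adjusted p = 0.000545) and higher than UNC0638 alone by 0.94 (adjusted p = 0.00748), or by −0.94 and 0.40 after normexp. The call against UNC0638 was lost when only these groups entered the fit (adjusted p = 0.0572).

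In RPMI-8226 the CCND1 levels were −1.27 and −1.36 with DMSO, −0.76 and −0.98 with GSK126, −2.16 and −1.87 with UNC0638, and −2.66 and −1.86 with both. The GSK126 arrays lay above DMSO, and the UNC0638 and combination arrays lay below it, with the combination replicates apart by more than those of any other group. The log2 changes were 0.45 for GSK126 (SE 0.27, adjusted p = 0.614), −0.70 for UNC0638 (SE 0.27, adjusted p = 0.472) and −0.94 for the combination (SE 0.27, adjusted p = 0.0689). Without replicate 2 of the combination the last value was −1.35 with an adjusted p of 0.0258. The combination stood below GSK126 alone by −1.39 (adjusted p = 0.0572), which became a call with the replicate number as a block (adjusted p = 0.0406), after normexp (−0.87, adjusted p = 0.025) and without replicate 2 of the combination (−1.79, adjusted p = 0.0221). The responses of the lines were not shown to differ, with differences (RPMI-8226 minus MM.1S) of −0.66 for GSK126 (95% interval −1.34 to 0.02), 0.68 for UNC0638 (0.00 to 1.36) and −0.50 for the combination (−1.18 to 0.18), and adjusted p of 0.496, 0.274 and 0.318. Without replicate 2 of the RPMI-8226 combination the last difference was −0.90 (adjusted p = 0.024).

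CCND3, cyclin D3 (probe at chr6:41903193-41903252, GRCh37), fell with UNC0638 and further with the combination in MM.1S. Its MM.1S levels were 1.32 and 1.40 with DMSO, 1.00 and 1.12 with GSK126, 1.01 and 0.85 with UNC0638, and 0.54 and 0.44 with both. Both combination arrays were below all other MM.1S arrays. The fall was 1.83-fold with the combination (log2 change −0.87, SE 0.10, adjusted p = 0.000949) and 1.35-fold with UNC0638 (−0.43, SE 0.10, adjusted p = 0.0237), and the GSK126 value of −0.30 did not pass (adjusted p = 0.117). The UNC0638 call was lost without DMSO replicate 1 or 2 (adjusted p = 0.072 and 0.102) and without UNC0638 replicate 1 or 2 (0.0501 and 0.116). The combination was also below GSK126 alone (−0.57, adjusted p = 0.00767) and below UNC0638 alone (−0.44, adjusted p = 0.0407), and the latter call was lost when any 1 of the 8 arrays was left out (adjusted p 0.0652 to 0.17).

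In RPMI-8226 the CCND3 replicates of a group were further apart than the groups, at 1.18 and 0.62 with DMSO, 1.21 and 0.64 with GSK126, 0.94 and 0.76 with UNC0638, and 0.73 and 0.89 with both. Every treated group overlapped DMSO, and the combination value was −0.09 (95% interval −0.71 to 0.52, adjusted p = 0.832). The difference between the lines in the response to the combination was 0.78 (SE 0.29, adjusted p = 0.113), and it was called without DMSO replicate 1 of RPMI-8226 (1.05, adjusted p = 0.0336). CCND2, the third D-type cyclin, is no member of the set. It stood at 6.00 and 5.77 with DMSO and 4.89 and 4.66 with both inhibitors in MM.1S (log2 change −1.11, adjusted p = 0.00119), and at 5.13 and 5.01 against 4.24 and 4.51 in RPMI-8226 (−0.70, adjusted p = 0.0377). The RPMI-8226 call of CCND2 was lost without either DMSO, UNC0638 or combination replicate (adjusted p 0.0592 to 0.184) and under both other scalings (0.0673 and 0.0935).

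CDK4 (probe at chr12:58142263-58142322, GRCh37) and CDK6 (chr7:92234443-92234502), the kinases that D-type cyclins activate, both fell in MM.1S. CDK4 stood there at 4.19 and 4.16 with DMSO, 3.84 and 3.85 with GSK126, 4.0 and 3.88 with UNC0638, and 3.47 and 3.28 with both. Each treated group lay below DMSO and the combination lay below all the others. The combination lowered CDK4 1.74-fold (log2 change −0.80, SE 0.09, adjusted p = 0.00107), while GSK126 (−0.33, adjusted p = 0.0864) and UNC0638 (−0.24, adjusted p = 0.106) did not pass. The combination was below GSK126 alone (−0.47, adjusted p = 0.0121) and below UNC0638 alone (−0.56, adjusted p = 0.0225). The first of these calls was lost without GSK126 replicate 1 or 2 (adjusted p = 0.0532 and 0.0575) or combination replicate 2 (0.053) and after quantile normalization (−0.28, 0.0744), and the second without UNC0638 replicate 1 or 2 (0.114 and 0.0702) or combination replicate 2 (0.0902).

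In RPMI-8226, CDK4 was 5.17 and 4.95 with DMSO, 5.01 and 4.75 with GSK126, 4.92 and 4.85 with UNC0638, and 4.34 and 4.65 with both. The combination arrays were the lowest of the 8, and the log2 change was −0.57 (SE 0.18, adjusted p = 0.0838), 1.48-fold lower on the linear scale. This value passed with an intensity-dependent prior variance (adjusted p = 0.0305), after normexp background correction (0.0452) and in one fit over all 16 arrays (0.0126). The lines differed by 0.23 in the response to the combination (95% interval −0.21 to 0.68, adjusted p = 0.481).

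CDK6 in MM.1S was lower in every group that received UNC0638 and not with GSK126 alone. Its levels were 4.88 and 4.73 with DMSO, 4.93 and 4.74 with GSK126, 4.06 and 3.85 with UNC0638, and 3.98 and 3.91 with both. The UNC0638 and combination arrays overlapped each other and stood apart from the other 4. UNC0638 lowered CDK6 1.80-fold (log2 change −0.85, SE 0.12, adjusted p = 0.0061) and the combination 1.82-fold (−0.86, SE 0.12, adjusted p = 0.00189). The combination differed from GSK126 alone by −0.89 (adjusted p = 0.00376) and from UNC0638 alone by −0.01 (95% interval −0.30 to 0.28). GSK126 against DMSO gave 0.03 (95% interval −0.26 to 0.32, adjusted p = 0.898).

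In RPMI-8226 the CDK6 levels were 4.35 and 4.21 with DMSO, 4.37 and 4.43 with GSK126, 4.23 and 4.16 with UNC0638, and 4.03 and 4.24 with both. The log2 changes were −0.08 with UNC0638 (95% interval −0.42 to 0.26) and −0.14 with the combination (−0.48 to 0.20, adjusted p = 0.529). CDK6 was the 1 member called as different between the lines, by 0.72 for the combination (SE 0.18, adjusted p = 0.0267), and its UNC0638 difference of 0.77 was just short of the threshold (adjusted p = 0.051, and 0.0281 with the replicate number as a block). Among all 18180 genes tested, 14.4% were called for the combination, 3.21% for UNC0638 and 0.913% for GSK126, and the members called numbered 1, 0 and 0 of 8 by limma, or 2, 3 and 0 at an unadjusted p under 0.05. The combination call of CDK6 was lost without MM.1S DMSO replicate 1 (adjusted p = 0.0984), MM.1S combination replicate 1 or 2 (0.0556 and 0.0885), RPMI-8226 DMSO replicate 2 (0.075) or RPMI-8226 combination replicate 2 (0.0784).

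**Figure D2:**
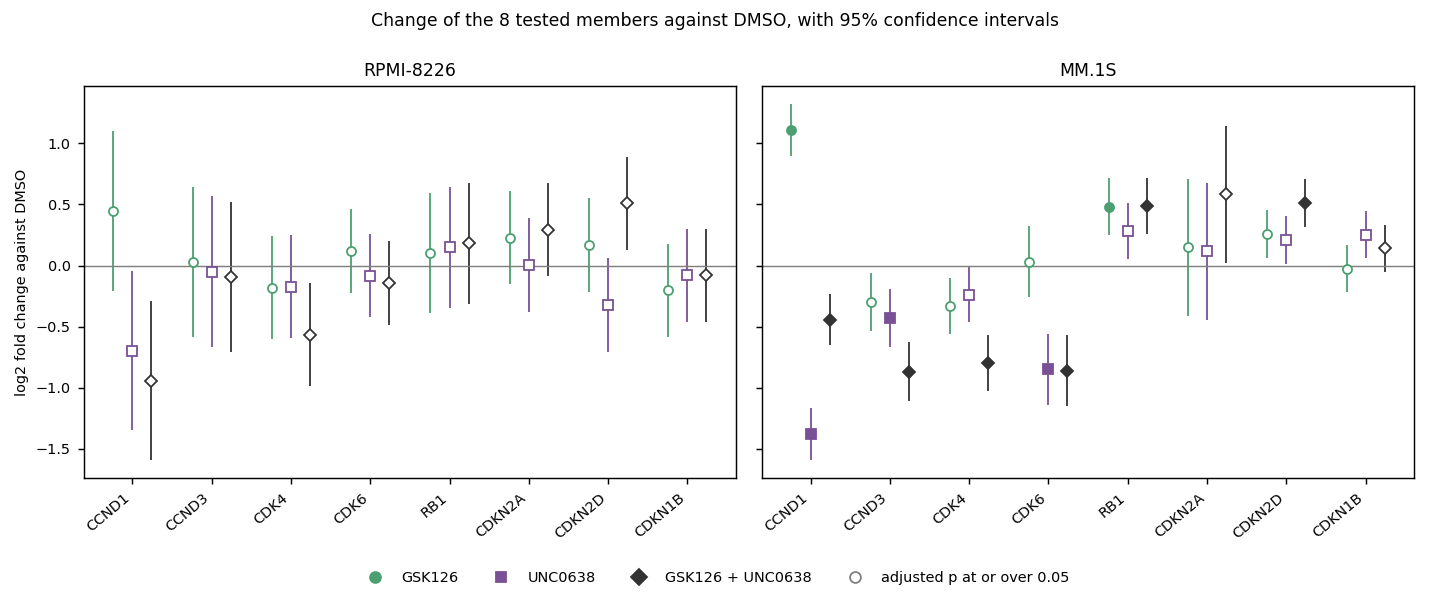
Log2 fold change against DMSO for the 8 tested members in each line (circles, GSK126; squares, UNC0638; diamonds, both), with 95% confidence intervals as bars and filled symbols for adjusted p under 0.05. All symbols are open in RPMI-8226; in MM.1S, CCND1 is filled at 1.11, −1.38 and −0.44, and CDK6 is filled for UNC0638 and the combination at −0.85 and −0.86.

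RB1, the substrate of these kinases and the brake on E2F, was higher in treated MM.1S cells. Its probe (10 spots, chr13:49055845-49055904, GRCh37) gave 2.54 and 2.41 with DMSO, 2.98 and 2.93 with GSK126, 2.70 and 2.82 with UNC0638, and 2.89 and 3.03 with both. All 6 treated arrays were above both DMSO arrays. RB1 rose 1.40-fold with the combination (log2 change 0.49, SE 0.10, adjusted p = 0.00674) and by a similar value with GSK126 (0.48, SE 0.10, adjusted p = 0.0394), and UNC0638 gave 0.28 (adjusted p = 0.0694). The GSK126 call was lost when any 1 of the 8 MM.1S arrays was left out (adjusted p 0.0558 to 0.173). In RPMI-8226 the levels were 3.56 and 3.72 with DMSO, 3.67 and 3.82 with GSK126, 3.60 and 3.98 with UNC0638, and 3.62 and 4.03 with both. The groups overlapped and the combination value was 0.18 (95% interval −0.31 to 0.68, adjusted p = 0.579).

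CDKN2A was bright in RPMI-8226 before any treatment, and its 2 probes did not tell the same story in MM.1S. The probe A_23_P43490 (chr9:21968039-21968098, GRCh37) gave in RPMI-8226 6.56 and 6.33 with DMSO, 6.82 and 6.53 with GSK126, 6.46 and 6.43 with UNC0638, and 6.77 and 6.71 with both. In MM.1S it gave 0.71 and 0.40, 1.03 and 0.37, 0.78 and 0.55, and 1.17 and 1.10, in the same order. It was well above background on all 16 arrays, and the combination arrays were the highest of MM.1S. Against DMSO the combination gave 0.30 in RPMI-8226 (SE 0.16, adjusted p = 0.252) and 0.58 in MM.1S (SE 0.23, adjusted p = 0.0755), and the MM.1S value passed under 8 of 19 alternatives, the replicate block among them (adjusted p = 0.0257). Both single inhibitors gave values within 0.23 of 0 in either line, none of which passed.

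The other CDKN2A probe, A_33_P3411628 (chr9:21970901-21970960), lies 2802 bases away on the same strand, and the scanner files assign the 2 probes to different transcripts of the gene. In RPMI-8226 it was well above background on all 8 arrays, at 4.16 and 4.10 with DMSO, 4.63 and 4.24 with GSK126, 4.02 and 4.14 with UNC0638, and 4.40 and 4.29 with both. In MM.1S it was not well above background on any of the 8 arrays. Its changes in RPMI-8226 were 0.30 with GSK126, −0.06 with UNC0638 and 0.21 with the combination, with none called (adjusted p 0.422 or more).

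**Figure D3:**
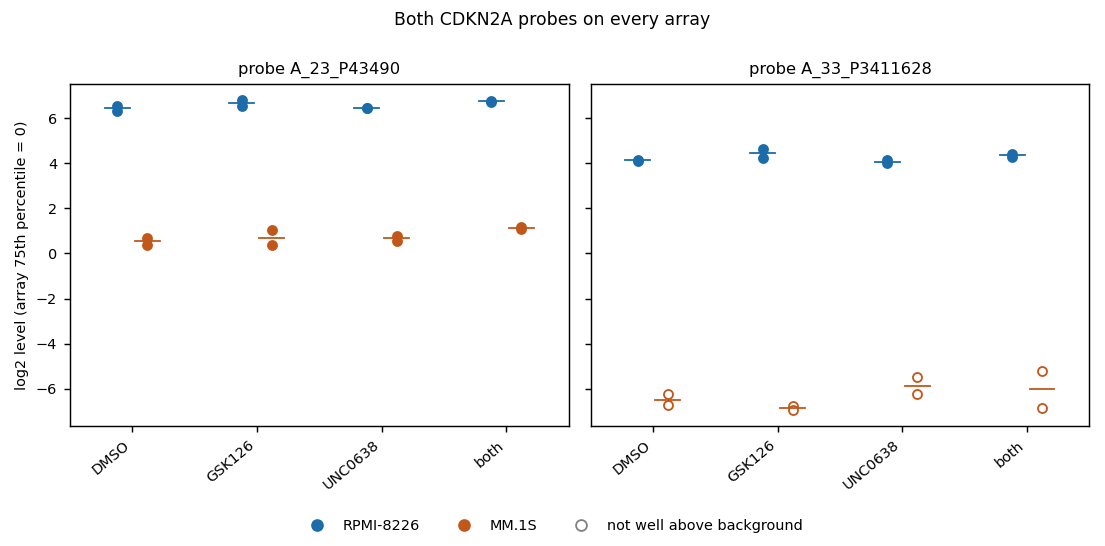
Log2 level of both CDKN2A probes on every array, by treatment, with RPMI-8226 in blue and MM.1S in orange, short lines at group means and open circles where a spot was not well above background. Both probes are filled on all 8 RPMI-8226 arrays, and in MM.1S the left probe is filled on all 8 and the right probe open on all 8.

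CDKN2B, the neighbour of CDKN2A, was at the edge of detection in RPMI-8226 and below it in MM.1S. Its probe (chr9:22008979-22009038, GRCh37) gave −6.18 and −5.57 with DMSO in RPMI-8226, both not well above background. The treated arrays were −3.66 and −4.59 with GSK126, −4.58 and −3.99 with UNC0638, and −2.87 and −4.11 with both, and 1 of the 2 arrays of each treated group was well above background. All 6 treated arrays were above both DMSO arrays. No fold is given, because the probe did not pass the filter and the other array of each treated group was not well above background. In MM.1S all 8 arrays were not well above background, at −7.02 to −6.45. CDKN2C (chr1:51439963-51440022) was not well above background on any of the 16 arrays, at −6.34 to −5.92 in RPMI-8226 and −6.91 to −5.75 in MM.1S, so no change could be read for it.

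CDKN2D, whose single probe was well above background on every array of both lines, rose with the combination in MM.1S, and its value in RPMI-8226 was nearly as large without passing the test. Its probe (chr19:10677226-10677285, GRCh37) gave in MM.1S 3.28 and 3.30 with DMSO, 3.51 and 3.59 with GSK126, 3.45 and 3.56 with UNC0638, and 3.78 and 3.83 with both. All treated arrays were above DMSO and the combination arrays were the highest. The rise with the combination was 1.43-fold (log2 change 0.51, SE 0.08, adjusted p = 0.00298), and the values for GSK126 (0.26, adjusted p = 0.106) and UNC0638 (0.21, adjusted p = 0.0987) did not pass. The combination differed from GSK126 alone by 0.26 (adjusted p = 0.0508, and 0.0341 with the replicate block) and from UNC0638 alone by 0.30 (0.0587 and 0.0419). In RPMI-8226 the levels were 1.84 and 1.94 with DMSO, 2.14 and 1.98 with GSK126, 1.55 and 1.59 with UNC0638, and 2.57 and 2.24 with both. Here the UNC0638 arrays lay below DMSO and the combination arrays above all others. The combination gave 0.51 against DMSO (SE 0.16, adjusted p = 0.0842) and 0.83 against UNC0638 alone (SE 0.16, adjusted p = 0.0466), and the latter call was lost when any 1 of the 8 arrays was left out (adjusted p 0.0612 to 0.259). The lines differed in the response to the combination by 0.00 (95% interval −0.38 to 0.38), and in the response to UNC0638 by −0.53 (−0.91 to −0.15, adjusted p = 0.134).

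CDKN1B (p27) was not called in any comparison in the main fits. The probe A_24_P81841 (10 spots, chr12:12874940-12874999, GRCh37) gave in MM.1S 3.1 and 3.03 with DMSO, 3.05 and 3.02 with GSK126, 3.32 and 3.31 with UNC0638, and 3.15 and 3.25 with both. UNC0638 gave 0.25 (SE 0.08, adjusted p = 0.0566) with both arrays above all others. This value passed under 6 of 19 alternatives. Among them were quantile normalization (adjusted p = 0.0193), an intensity-dependent prior variance (0.0177) and the mean over both probes (0.0307). The combination gave 0.14 against DMSO (adjusted p = 0.176), which became 0.42 after quantile normalization (0.0069) and 0.35 with the percentile over probes detected on all arrays (0.0108), and against GSK126 alone its 0.17 (0.144) became 0.35 (0.0197) and 0.30 (0.0295). In RPMI-8226 the levels were 1.15 and 1.39, 0.96 and 1.16, 1.08 and 1.29, and 1.19 and 1.18 in the same order, each treated group overlapped DMSO, and the combination gave −0.08 (95% interval −0.46 to 0.30). The other probe, A_23_P204696 (chr12:12871119-12871178), gave 0.41 for UNC0638 in MM.1S (adjusted p = 0.0746) and −0.06 for the combination in RPMI-8226.

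Against the single inhibitors, the combination lowered 4 of the 8 tested members relative to GSK126 in MM.1S (CCND1, CCND3, CDK4 and CDK6), where 38.3% of genes were called in either direction. Relative to UNC0638 it raised CCND1 and lowered CCND3 and CDK4, 3 of 8 where 14% of genes were called. In RPMI-8226, 0 members were called by limma relative to GSK126 (2.77% of genes, and 1 member, CCND1, at an unadjusted p under 0.05), and 1, CDKN2D, relative to UNC0638 (3.7% of genes). Over the 8 tested members the median log2 change with the combination was −0.15 in MM.1S and −0.09 in RPMI-8226, close to −0.11 and −0.12 over all genes. After quantile normalization the MM.1S combination calls against DMSO held at values that were smaller for CDK4 (−0.47) and CDK6 (−0.52) and larger for CDKN2D (0.84) and RB1 (0.76).

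The rest of the G1 and RB-E2F machinery was read from a list of 22 further genes (cyclins E, CDK2, E2F and DP factors, RBL1, RBL2, SKP2 and others), all of which could be tested. In MM.1S, 32% of all genes were called lower with the combination and 23.2% higher (16.7% and 13.8% with UNC0638). Of the 22, 15 fell and 4 rose with the combination, with a median log2 change of −0.73 beside −0.11 over all genes. Among those that fell were E2F2, an activating E2F (−1.60, adjusted p = 0.000419), CDC25A, the phosphatase that activates CDK2 (−1.55, adjusted p = 0.000896), and SKP2, which targets p27 for degradation (−1.48, adjusted p = 0.000233). The 4 that rose included CDKN1C (p57), a further CDK inhibitor, at −0.04 and 0.04 with DMSO, 1.66 and 1.31 with GSK126, 0.10 and −0.19 with UNC0638, and 1.87 and 1.72 with both. CDKN1C was called with the combination (1.79, adjusted p = 0.000455) and was the 1 gene of the list to rise with GSK126 (1.49, adjusted p = 0.00787). E2F7, a repressor E2F, rose by 0.74 (adjusted p = 0.00155) and E2F5 by 0.42 (adjusted p = 0.0317), and the E2F5 call was lost without either replicate of DMSO or of the combination (0.0597 to 0.134). UNC0638 alone lowered 9 of the 22 and raised 1, but 3 fell without UNC0638 replicate 2, 4 without DMSO replicate 1, 5 without DMSO replicate 2 and 6 without UNC0638 replicate 1 or under either other scaling. The count of 4 that rose with the combination was 2 without either DMSO replicate or without combination replicate 2.

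In RPMI-8226, where 5.03% of all genes were called lower with the combination, it lowered 2 of the 22, RBL1 (the pocket protein p107, −0.79, adjusted p = 0.042) and CCND2. The single inhibitors changed 0 of the 22, where 1 gene each was below an unadjusted p of 0.05. The median of −0.14 turned to 0.01 and 0.03 under the other scalings, so no direction is given for it. With the replicate block 4 were lower and 1 higher, SKP2 (−1.16, adjusted p = 0.0234), TFDP2 (−0.61, 0.025) and CDKN1A (0.62, 0.0478) being added, while 0 were lower under either other scaling. RBL1 was lost without DMSO replicate 1 and without either replicate of GSK126, UNC0638 or the combination (adjusted p 0.0604 to 0.187). In the response to the combination, 14.4% of all genes were called as different between the lines. Of the list 5 genes were, CCNE1 (RPMI-8226 minus MM.1S, 1.13), E2F8 (1.07), E2F3 (0.72), E2F2 (1.45) and CDKN1C (−1.47). E2F2 and CDKN1C kept this call under every alternative run. E2F8 lost it without combination replicate 2 of MM.1S (adjusted p = 0.0518), E2F3 without either DMSO replicate or combination replicate 1 of MM.1S (0.0558 to 0.0639), and CCNE1 without any 1 of 13 of the 16 arrays (0.0571 to 0.142).

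Of 15 genes that E2F turns on for S phase (such as the MCM helicase subunits, PCNA, TYMS and RRM2), 15 fell with the combination in MM.1S. Their median was −1.02 beside −0.11 over all genes, of which 32% were called lower. After quantile normalization MCM3 (−0.37, adjusted p = 0.172) and TK1 (−0.24, adjusted p = 0.117) were no longer called. MCM7 changed by −1.22 (adjusted p = 0.000336), RRM2, a subunit of ribonucleotide reductase, by −1.19 (adjusted p = 0.00515) and MCM4 by −1.18 (adjusted p = 0.00132). UNC0638 alone lowered 8 and GSK126 alone 1, with medians of −0.43 and −0.15, where 16.7% and 2.37% of all genes were called lower. The UNC0638 count was 1 after quantile normalization and 3 with the percentile over probes detected on all arrays. By limma it was 0 without either DMSO replicate or without a filter, where 14 of the 15 were below an unadjusted p of 0.05 with all arrays, 2 without either UNC0638 replicate, 4 without either GSK126 replicate, and at most 13, with an intensity-dependent prior variance. In RPMI-8226 all 15 had values below 0 with the combination (median −0.43 beside −0.12 over all genes). Where 5.03% of all genes were called lower, 2 of the 15 were, MCM4 (−0.81, adjusted p = 0.0389) and the licensing factor CDT1 (−0.61, adjusted p = 0.0412). With the replicate block 4 were called, among them MCM2 (adjusted p = 0.0384) and MCM7 (0.0383), and 6 with an intensity-dependent prior variance or in one fit over all 16 arrays. Neither MCM4 nor CDT1 passed under the other scalings, and both were lost without DMSO replicate 1, either UNC0638 replicate or either combination replicate (adjusted p 0.0795 to 0.189). MCM4 was also lost without either GSK126 replicate (adjusted p = 0.0591) and CDT1 without DMSO replicate 2 (0.0899). In the response to the combination, 3 of the 15 were called as different between the lines, where 14.4% of all genes were called. TYMS (RPMI-8226 minus MM.1S, 0.64) and RRM2 (0.94) were among the 3. Both lost the call without DMSO replicate 1 or combination replicate 2 of MM.1S, and without DMSO replicate 2 or combination replicate 2 of RPMI-8226 (adjusted p 0.0749 to 0.164), and each also without further arrays.

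**Figure D4:**
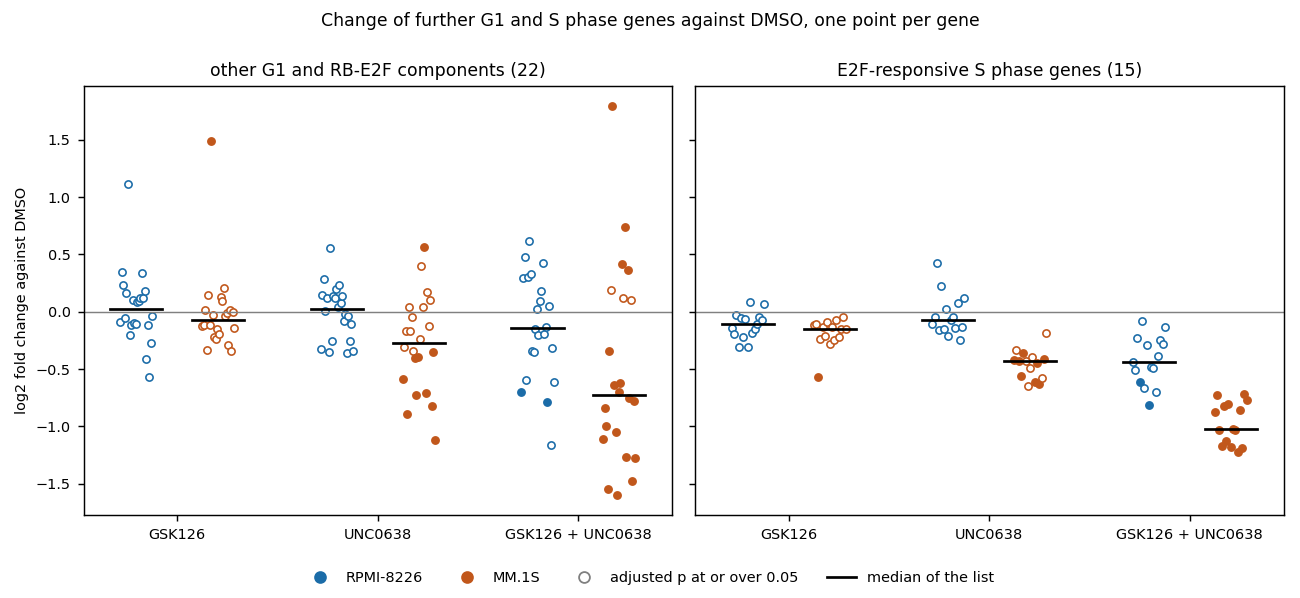
Log2 fold change against DMSO of the 22 further G1 and RB-E2F genes (left) and the 15 E2F-responsive S phase genes (right), 1 point per gene, RPMI-8226 in blue and MM.1S in orange, filled for adjusted p under 0.05, with black lines at list medians. With the combination the MM.1S medians are −0.73 and −1.02, and all 15 S phase genes are filled in MM.1S against 2 in RPMI-8226.

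Of the neighbours of CDKN2A and CDKN2B on chromosome 9, 2 were on the array under their names. MTAP, an enzyme of methionine salvage, was well above background in both lines, at 3.18 and 3.35 with DMSO against 2.98 and 3.21 with both in RPMI-8226 (−0.17, adjusted p = 0.483), and at 1.91 and 1.89 against 1.32 and 1.19 in MM.1S (−0.65, adjusted p = 0.00172). DMRTA1 gave −3.62 and −5.18 with DMSO in RPMI-8226 and −2.08 and −2.64 with both (2.04, SE 0.48, adjusted p = 0.0401), with 1 of the 2 DMSO arrays well above background. The call was lost without DMSO replicate 2, where the log2 change was 1.26, and without either replicate of any treated group. In MM.1S, DMRTA1 was well above background on every array and did not rise with the combination (−0.12, not called).

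Markers moved along with these changes, in comparisons where 32% of all genes in MM.1S and 5.03% in RPMI-8226 were called lower with the combination. With the combination, all 10 plasma cell markers fell in MM.1S (5 after quantile normalization), such as TNFRSF13B (−1.26), IRF4 (−1.18) and SLAMF7 (−0.84), and the summed level of the list went from 608 to 631 with DMSO to 406 to 409 with both (linear scale, the array 75th percentile as 1). In RPMI-8226, 4 fell, including TNFRSF17 (−2.56) and IRF4 (−1.72), while SLAMF7 rose by 4.88, and the sum went from 329 to 374 with DMSO to 191 to 252. The count of 4 was 1 without DMSO replicate 1 or combination replicate 1, 2 without DMSO replicate 2 or without a filter, and 6 with the replicate block. TNFRSF17 was lost without either DMSO replicate or combination replicate 1 (adjusted p 0.0517 to 0.0642). Of 12 markers of other cell types 11 were on the array. CD34 and PAX5 were not well above background on any array of either line, and 4 were on all 8 RPMI-8226 arrays (CD14, CD3D, EPCAM, NCAM1) and 3 on all 8 MM.1S arrays (CD14, CD3D, NCAM1). The sum of the 11 was 39.9 to 48.0 with DMSO and 28.3 to 32.6 with both in RPMI-8226, and 1.21 to 1.35 and 1.46 to 1.78 in MM.1S. In RPMI-8226, 4 of the 6 tested were called higher with the combination and 1 lower (8.06% and 5.03% of all genes). In MM.1S, 2 of 6 were called higher and 1 lower (23.2% and 32%). In RPMI-8226, CD3D changed by 4.98 (adjusted p = 0.000455) and EPCAM by −1.31 (adjusted p = 0.0119). The EPCAM call was lost without combination replicate 1 (−1.15). MS4A1 was at least 17.1-fold higher with the combination in RPMI-8226 and at least 2.75-fold higher in MM.1S. CD3E was at least 6.72-fold higher in RPMI-8226 and at least 4.67-fold higher in MM.1S, while EPCAM was at least 4.36-fold lower in MM.1S. These are bounds, because no DMSO array was well above background for MS4A1 or CD3E, and no MM.1S combination array for EPCAM. Their probes passed the filter through other groups, so these calls rest in part on readings below background and no adjusted p is given. The part of these marker changes in the results on the cyclin D pathway was not tested.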

How the data were processed

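Total RNA of 16 samples was labelled and hybridised by the authors to one-colour SurePrint G3 Human GE v2 arrays, read with Agilent Feature Extraction 10.7 per the labels. The deposited values are spot intensities on a linear scale, background-subtracted by the scanner software and not normalized between arrays; the deposited series table holds the same intensities (99.9955% equal after rounding to 3 significant digits). The study's methods name no test for the arrays. Control and outlier spots (220 to 358 outliers per array) were left out. Log2 intensities were set against the 75th percentile of their array, and repeat spots were averaged. Probes well above background in at least 0.5 of their spots on both arrays of a group were kept (23199 in RPMI-8226, 25102 in MM.1S), and a gene was read from its leading probe, the one with the highest mean level. Fits used limma 3.58.1 in R 4.3.3 (lmFit, eBayes), with 8 arrays per line, or all 16 for differences between lines, no covariates, Benjamini-Hochberg over all kept probes and a threshold of 0.05. The code was tested on simulated data. Bounds set a group below background at the lowest detected signal of its arrays. The number of arrays, 2 per group, limits the precision.

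Members and lists were chosen with earlier results of these data known. Named genes were all members, at most the 3 strongest rises and falls with the combination per list and line, CCND2 and MTAP; genes called as different between the lines were named after their values were seen. Same-numbered replicates deviated together in 6 of 6 pairs of groups in RPMI-8226 (r = 0.254 to 0.415) and less so in MM.1S (0.085 to 0.225), and the file names give them a shared date of unstated meaning, so the numbers were taken to pair the arrays within a line. The main fits did not use this pairing, which entered only as the replicate block. Alternatives were other scalings, normexp (offset 50), other filters, the series table, a replicate block, an intensity-dependent prior variance, fits on other sets of arrays, the mean over probes, and leaving out each array. Probe coordinates are those of the scanner files (GRCh37); no annotation of that build was used here, so exon and UTR are not given. Some list genes are not reported here by name.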

Additional observations from a re-analysis of the deposited data

Results flagged for a closer look

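CDK6, a kinase that D-type cyclins activate, was the 1 member of 8 tested whose response was called as different between the lines. Among all 18180 genes tested, 14.4% were called for this difference, so 1 of 8 is near the background share. The call was lost under 7 of 26 alternatives, among them no filter (adjusted p = 0.0683) and only the groups compared (0.0916). The combination changed it by −0.86 on the log2 scale in MM.1S (SE 0.12) and by −0.14 in RPMI-8226 (SE 0.14), a difference of 0.72 (RPMI-8226 minus MM.1S, SE 0.18, limma adjusted p = 0.0267). Both combination arrays were below both DMSO arrays in MM.1S, while 1 of the 2 was within the DMSO range in RPMI-8226. The lines lay on different slides, so line and slide cannot be told apart.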

How the results depend on the processing

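Of 104 member results, 20 were called and 0 reversed under any alternative; 10 kept the call throughout, namely CCND1 (GSK126, UNC0638, and the combination against GSK126), CCND3, CDK4, CDKN2D and RB1 (the combination), and CDK6 (UNC0638, the combination, and the combination against GSK126), all in MM.1S. Of the 84 uncalled, 19 gained a call under some alternative. Taking the percentile over probes detected on all 16 arrays moved the median of all genes by up to 0.21 (MM.1S, combination). No called member changed its sign, but calls in MM.1S were lost for CCND1 (the combination, adjusted p = 0.0769) and CCND3 (UNC0638, 0.0643, and the combination against UNC0638, 0.0848). Calls of CDKN1B, CDKN2A, CDKN2D and RB1 were gained in MM.1S. The dim signals of CDKN2B and CDKN2C limit what can be said of them. The causes of the changes below were not tested.

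In RPMI-8226, the count for the combination (0) became 1 with normexp and 3 with an intensity-dependent prior variance or one fit over all 16 arrays, and was 0 to 1 without single arrays. Against GSK126 (0) it became 1 with normexp, the prior variance, one fit, or the replicate block, and was 0 to 1 without single arrays. Against UNC0638 (1) it became 0 without a filter or with only the groups compared, and was 0 to 0 without single arrays. In MM.1S, GSK126 (2) gave 1 without a filter, with only the groups compared or in one fit, 4 with the prior variance, and 1 to 1 without single arrays. UNC0638 (3) gave 6 after quantile normalization, 5 with the other percentile or normexp, 7 with the prior variance, and 2 to 3 without single arrays. The combination against UNC0638 (3) gave 1 without a filter, 0 with only the groups compared, and 1 to 2 without single arrays. The combination against DMSO (6) gave 6 to 7 and against GSK126 (4) gave 3 to 4 without single arrays. Between the lines, the UNC0638 count (0) became 1 with the filter on all arrays, the replicate block, the prior variance or the mean over probes, and 0 to 1 without single arrays, and the combination count (1) became 0 without a filter or with only the groups compared, and 0 to 2 without single arrays.

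With the replicate block, counts in MM.1S were 2 for GSK126, 3 for UNC0638, 7 for the combination, 5 against GSK126 and 4 against UNC0638. Beyond the calls of CCND1, CDKN2A, CDKN2D and CDK6 given in the results, the block changed no call of a member.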
